A study of Mus musculus with 2 samples.

Results

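Among the cells digested from mouse femurs, 253 of 8553 barcodes formed a small population of tendon-like cells with UMIs of *Tnmd* and of *Kera* or *Angptl7*. The population was chosen by measured counts. A barcode was taken when it had at least 200 detected genes, at least 2 UMIs of *Kera* or of *Angptl7*, at least 1 UMI of *Tnmd*, and 0 UMIs of *Chodl* and *Pi16*. In addition, *Col2a1* had to make up under 0.5%, *Prg4* under 5% and the 4 haemoglobin genes under 10% of its UMIs. The untreated library held 116 of these cells among 4633 barcodes (2.5%, exact 95% interval 2.07 to 3.0) and the calcitriol library 137 among 3920 (3.49%, 2.94 to 4.12). None of their barcodes occurred in both libraries, which shared 8 barcodes in all.

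Both groups were C57BL/6J mice of 7 weeks. The cells of 6 mice were pooled into 1 library per group, so that no difference between the groups has a replicate check and no p-value was computed. Calcitriol (1,25-dihydroxyvitamin D3, the active form of vitamin D) had been injected 3 times at 2.5 μg/kg, with the bones collected 24 h after the last of these injections. The other group is labelled untreated, and no vehicle injection is described for it, so that the effects of the injections and of calcitriol cannot be told apart. The epiphyses had been cut off and the marrow flushed out before the bone pieces were digested with collagenase and EGTA, and cells with the leukocyte antigen CD45 had been depleted with beads.

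Tendon and ligament cells (tenocytes and ligamentocytes) lay down parallel fibres of type I collagen, and they anchor these fibres to bone at the enthesis. The transcription factor Scleraxis (*Scx*) drives the tendon programme together with *Mkx*, and tenomodulin (*Tnmd*) is a membrane protein used as the marker of mature tenocytes. Keratocan (*Kera*) is a small leucine-rich proteoglycan best known from the cornea, and *Angptl7* encodes a secreted angiopoietin-like protein. Collagen chains are folded and modified in the endoplasmic reticulum with the help of chaperones, then trimmed and crosslinked outside the cell. The vitamin D receptor is a nuclear receptor, and *Cyp24a1* is its classical target gene.

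The sequences around the start sites of *Angptl7* and *Kera* are shown because both genes defined the cells and their UMIs moved in opposite directions between the libraries. *Angptl7* (ENSMUSG00000028989) lies on chromosome 4 from 148495183 to 148500460 on the minus strand, and *Kera* (ENSMUSG00000019932) on chromosome 10 from 97606879 to 97613692 on the plus strand, both in build GRCm38. *Tnmd* (ENSMUSG00000031250) lies on chromosome X from 133850980 to 133865577, and *Scx* (ENSMUSG00000034161) on chromosome 15 from 76457452 to 76459458, both on the plus strand. Each window runs from 250 bases before to 50 bases after the RefSeq start site (GRCm38.p6), 5′ to 3′ on the strand of the gene, at chr4:148500413-148500712 for *Angptl7* and at chr10:97606955-97607254 for *Kera*. For *Kera* the RefSeq start site lies inside the gene span given above, so its window does not hold the first base of that span. Capitals mark matches to the E-box letters CANNTG, the core bound by basic helix-loop-helix factors such as Scleraxis.
Angptl7: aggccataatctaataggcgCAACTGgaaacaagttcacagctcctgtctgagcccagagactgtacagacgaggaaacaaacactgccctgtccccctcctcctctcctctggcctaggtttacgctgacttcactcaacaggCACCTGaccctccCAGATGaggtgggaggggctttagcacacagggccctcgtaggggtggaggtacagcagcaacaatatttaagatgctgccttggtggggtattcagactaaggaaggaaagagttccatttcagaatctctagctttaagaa
Kera: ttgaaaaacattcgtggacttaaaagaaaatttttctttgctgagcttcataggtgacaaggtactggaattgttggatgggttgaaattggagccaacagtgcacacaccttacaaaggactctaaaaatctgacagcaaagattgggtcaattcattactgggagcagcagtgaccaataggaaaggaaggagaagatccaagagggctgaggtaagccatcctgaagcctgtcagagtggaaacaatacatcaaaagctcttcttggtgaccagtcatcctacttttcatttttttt
There were 3 matches in the *Angptl7* window and 0 in the *Kera* window. The letters are short, read the same on both strands, and occurred in 72.3% of all 32851 promoter windows, so a match describes the letters only.

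Of the 5 markers given for the population, *Angptl7*, *Kera* and *Tnmd* were set by the rule, and *Cilp2* and *Npy* were not. *Cilp2*, a cartilage intermediate layer protein, had a UMI in 87.1% of the untreated and 86.9% of the calcitriol cells. In endothelial cells, which should lack it, the share was 1.55% and 1.31%, and in erythroid cells 2.46% and 4.11%. Thrombospondin 4 (*Thbs4*), fibromodulin (*Fmod*) and *Comp*, which organize collagen fibres, were not part of the rule and were found in 97.4%, 93.1% and 96.6% of the untreated and 96.4%, 94.2% and 93.4% of the calcitriol cells. In erythroid cells the shares of these genes were 3.47%, 5.51% and 10.2% and, with calcitriol, 6.28%, 8.66% and 15.4%. *Npy*, which was named as a marker of the population, was nearly absent. It was found in 3 untreated cells with 4 UMIs in all and in 5 calcitriol cells with 92 UMIs, of which 1 cell held 70. *Scx* was found in 65.5% of the untreated and 31.4% of the calcitriol cells (1.00% and 1.08% of erythroid cells) and *Mkx* in 40.5% and 43.8% (0.668% and 0.866%). The median depth was 12071 and 11810 UMIs in the tendon-like and 10566 and 10279.5 UMIs in the erythroid cells.

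Of the 116 untreated cells, 57 (49.1%) had UMIs of both *Kera* and *Angptl7*, as did 58 of the 137 calcitriol cells (42.3%). Cells with *Angptl7* alone made up 22.4% of the untreated and 54.0% of the calcitriol population, and cells with *Kera* alone 28.4% and 3.65%. The share of cells that entered through each gene thus differed between the libraries. At the edge of the rule, 13 untreated and 4 calcitriol cells had exactly 2 UMIs of the more abundant of both genes. Another 16 and 7 barcodes had 1 UMI and were otherwise eligible, and 106 and 79 had 0. *Thbs4* stood at 3394 counts per 1e6 UMIs (CPM) in the untreated cells just inside and at 1604 CPM in those just outside, against 1859 and 5589 CPM with calcitriol.

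The cells were deeply sequenced. They held 1477022 UMIs in the untreated and 1873298 in the calcitriol library, with a median of 12071 and 11810 UMIs and of 2992.5 and 2842 genes per cell. UMIs per cell ranged from 743 to 44419 and from 706 to 77550. The median share of a cell's UMIs was 3.39% and 3.29% for mitochondrial genes, and 0.139% and 0.0306% for haemoglobin genes. Apart from mitochondrial and ribosomal protein genes, the most abundant genes over both libraries were *Gm42418*, *Malat1*, *Dcn*, *Col1a1*, *Sparc*, *Col1a2*, *Cst3*, *Mgp*, *Fth1* and *Mt1*. Decorin (*Dcn*), a proteoglycan that binds collagen fibrils, stood at 23857 CPM in untreated against 25152 CPM in calcitriol cells.

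*Angptl7*, *Kera* and *Tnmd* were required by the rule, so their levels in these cells are a description. Summed *Angptl7* was 1567 CPM without and 8653 CPM with calcitriol, a log2 ratio of 2.47 with an exact 95% interval from 2.40 to 2.53 that covers counting error only. The lowest, median and highest cell stood at 0, 421 and 19514 CPM in the untreated and at 0, 7370 and 45428 CPM in the calcitriol library. The cells of the libraries overlapped, and a UMI of *Angptl7* was found in 71.6% and 96.4% of them. *Kera* was 1088 CPM in untreated against 280 CPM in calcitriol cells (log2 ratio −1.96, −2.10 to −1.81), and its median cell went with this, at 752 and 0 CPM. *Tnmd* was 1137 and 689 CPM (−0.72). After thinning to 3000 UMIs per cell (111 and 134 cells, with 5 and 3 shallower cells left out), *Angptl7* was detected in 59.5% of the untreated and 94.8% of the calcitriol cells and *Kera* in 65.8% and 30.6%. In the 57 and 58 tendon-like cells with UMIs of both genes, the log2 ratio was 1.91 for *Angptl7* and −1.60 for *Kera*. These values, too, come from cells that counts of both genes had chosen.

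**Figure D1:**
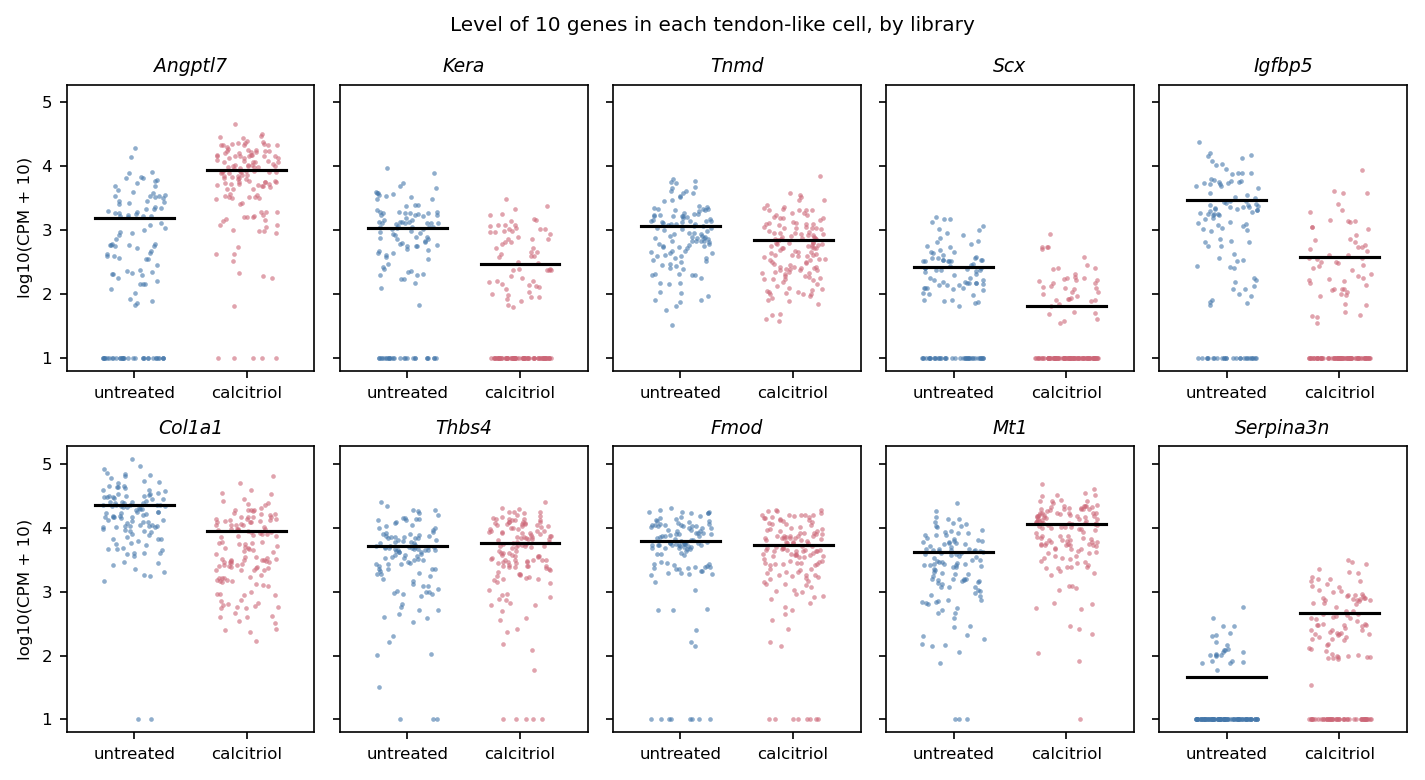
Levels of selected genes in single tendon-like cells of the untreated (116 cells) and calcitriol (137 cells) library, on an axis of log10(CPM + 10), with CPM computed within the cell. Each point is 1 cell, the bar is the level of the summed UMIs of the library, and cells with 0 UMIs lie at the bottom. The calcitriol cells sit higher for Angptl7 and lower for Kera, and the ranges of the cells overlap.

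The opposite directions of both genes were also present in cells chosen without counts of either. In junction cells, which had UMIs of *Tnmd* and *Chodl* and resemble the muscle end of the tendon (105 untreated and 120 calcitriol cells), *Angptl7* was 820 and 2446 CPM (log2 ratio 1.58) and *Kera* 830 and 173 CPM (−2.26). A set of 279 untreated and 391 calcitriol barcodes was taken with at least 5 UMIs each of *Thbs4*, *Fmod* and *Comp* and 0 UMIs of *Pi16*. There the log2 ratio was 1.81 for *Angptl7*, −2.41 for *Kera* and −1.32 for *Tnmd*. This set included 89 and 101 of the tendon-like cells, so it was not independent of them, and it was defined after their values had been seen. In addition, 63 and 74 cells of the set had UMIs of *Chodl*, so it can share cells with the junction class and is not a separate check.

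UMIs of both genes also occurred in cells that should lack them. A UMI of *Angptl7* was found in 0.877% of the untreated and 4.11% of the calcitriol erythroid cells, and of *Kera* in 1.17% and 0.216%. The tendon-like cells were chosen for these genes, so no comparison with their shares was made. The share of *Tnmd* in erythroid cells was 1.34% and 1.30%.

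Beyond the genes of the rule, the tendon-like cells of the calcitriol library had higher levels of metallothioneins, *Serpina3n*, *Pdk4* and *Txnip*, and lower levels of type I collagen, the chaperones that fold it, *Igf1*, *Igfbp5* and *Scx*. Counted as measured were 6148 genes that had 50 or more UMIs in the pooled libraries and were detected in 10% or more of the cells on at least 1 side. Of these, 251 (4.08%) were at least 2-fold higher with calcitriol and 357 (5.81%) at least 2-fold lower, and the median log2 ratio of all of them was −0.09. With that median set to 0 the split changed to 318 higher and 277 lower, so the balance of directions depends on the scaling. No gene was tested, since each group was 1 library. Where a pair of levels follows a gene, the first is that of the untreated and the second that of the calcitriol cells.

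**Figure D2:**
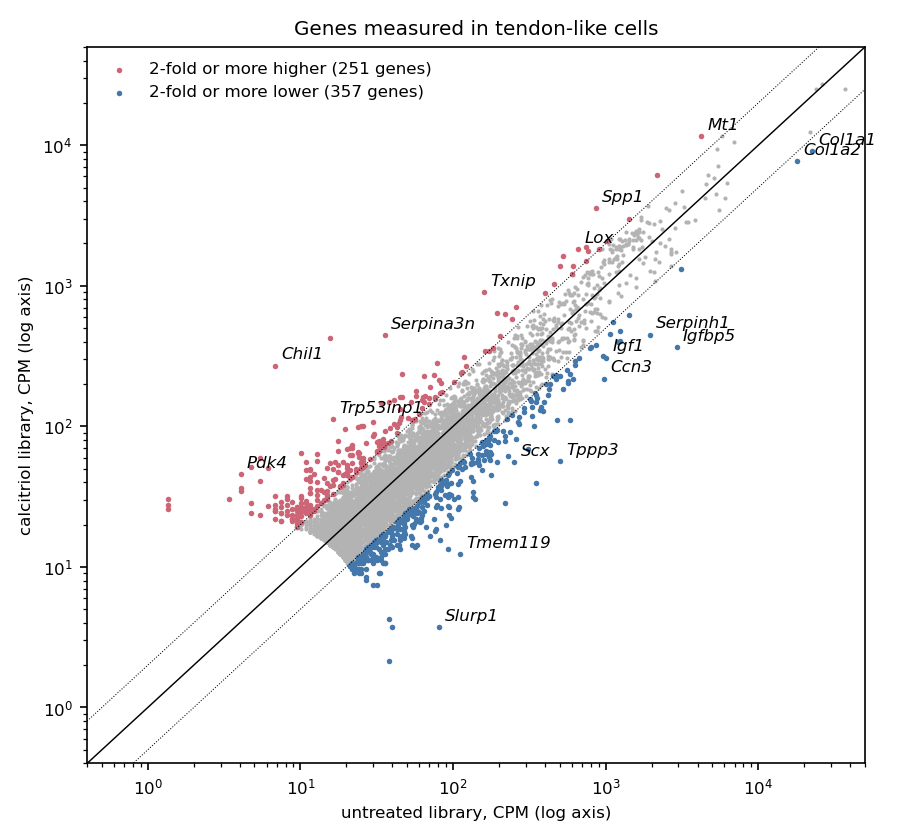
CPM of the 6148 measured genes in the untreated (x axis) and calcitriol (y axis) tendon-like cells, both on a log scale. Each point is 1 gene, and the coloured points are the 251 genes at least 2-fold higher and the 357 at least 2-fold lower with calcitriol.

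The 10 largest ratios belonged to *Chil1*, *Cytl1*, *Serpina3m*, *Cnmd*, *Col9a3*, *Serpina3n*, *Pdk4*, *Stmn1*, *Snorc* and *Maml2*, with log2 ratios from 5.32 to 3.17. Several of these are cartilage genes with UMIs in few cells, and their ratios depended on which cells were counted. Without the cells with bone, cartilage or vessel genes described at the end, *Snorc* was at 0.46, *Col9a3* at 2.53 and *Cnmd* at 2.72, and after thinning to 3000 UMIs *Cnmd* was at 0.95 and *Stmn1* at 1.19. In the cells chosen by *Thbs4*, *Fmod* and *Comp*, described above, *Snorc* was at 0.83, *Cytl1* at 1.09 and *Chil1* at 2.32. *Cytl1*, a cytokine-like protein of cartilage, was found in 8 untreated and 34 calcitriol cells, and 1 cell held 58.7% of its calcitriol UMIs. *Chil1*, a chitinase-like protein, was found in 5 and 24 cells, and 61.6% of the calcitriol UMIs of *Stmn1*, a microtubule regulator, came from 1 cell. *Serpina3n*, a secreted inhibitor of serine proteases, was spread over more cells. It was 35.9 CPM without and 446 CPM with calcitriol (log2 ratio 3.64, 3.24 to 4.07) and was found in 25 of 116 and in 85 of 137 cells.

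The 10 smallest ratios belonged to *Slurp1*, *Megf6*, *Nppc*, *Tmem119*, *Tppp3*, *Eno3*, *Mmp13*, *Igfbp5*, *Nrep* and *Cgref1*, with log2 ratios from −4.43 to −2.80. *Igfbp5*, a secreted binding protein for insulin-like growth factors, was 2925 CPM in untreated against 367 CPM in calcitriol cells (log2 ratio −3.0, −3.11 to −2.88), with UMIs in 90 and 58 cells. *Tppp3*, a tubulin-binding protein that marks progenitors in the tendon sheath, was 505 and 56.6 CPM, and *Tmem119*, a membrane protein of bone-forming cells, 110 and 12.3 CPM. *Mmp13*, a collagenase, rested on 7 and 14 cells. Its log2 ratio was −3.14, and it was 0.63 in the cells chosen by *Thbs4*, *Fmod* and *Comp*, so its direction turned with the choice of cells. In these cells *Eno3* was at −1.01, *Cgref1* at −1.33, *Tmem119* at −1.67 and *Igfbp5* at −1.88. *Slurp1* was at −2.68 in the cells with both *Kera* and *Angptl7*, and *Megf6* at −2.39 after thinning.

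Among the fibrillar collagens and their partners, both chains of type I collagen were lower with calcitriol. Of 19 measured members, 8 were at least 2-fold lower and 0 higher, beside 5.81% and 4.08% of all genes, and their median log2 ratio was −0.85. *Col1a1* and *Col1a2*, the chains of type I collagen, were 22626 and 17958 CPM in the untreated and 9051 and 7692 CPM in the calcitriol cells (log2 ratios −1.32 and −1.22). In the cells chosen by *Thbs4*, *Fmod* and *Comp* both were within 2-fold (−0.91 and −0.84). There 3 of 20 measured members of the list were at least 2-fold lower, beside 335 of 8304 genes measured. In the tendon-like cells, the others past 2-fold were *Col5a1*, *Col8a1*, *Col8a2*, *Col11a2*, *Col15a1* and *Col18a1*. *Col12a1* and *Col14a1*, collagens that coat the fibrils, had log2 ratios of 0.09 and 0.02. The summed level of the list was 53697 and 25163 CPM.

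Most genes that process and crosslink collagen were below 0 (25 of 27). Of all 6148 genes, 3505 were below 0. At least 2-fold lower were 9 and higher 1, beside 5.81% and 4.08% of all genes, and the median was −0.75. *Serpinh1*, the collagen chaperone HSP47, was 1956 CPM without and 449 CPM with calcitriol (log2 ratio −2.12, −2.23 to −2.01). *Kdelr3*, a receptor that returns proteins to the endoplasmic reticulum, was at −2.04, *Creb3l1*, a transcription factor for collagen secretion, at −1.97, and *Pcolce*, which enhances the removal of the procollagen C-propeptide, at −1.59. The prolyl hydroxylases *P4ha1* and *P3h1*, the protease *Bmp1*, *Fkbp14* and *Loxl2* completed the 9. The 1 higher gene was lysyl oxidase (*Lox*), which crosslinks collagen and elastin, at 659 and 1817 CPM (log2 ratio 1.46, 1.36 to 1.57).

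Among general folding genes of the endoplasmic reticulum, *Hsp90b1*, *Calr* and *Pdia3* were lower as well. The list of 24 genes was put together after the ratios had been seen and describes them only. Of the 24, 13 were at least 2-fold lower and 0 higher, beside 5.81% and 4.08% of all genes, with a median of −1.16. *Hsp90b1* was 1248 and 477 CPM, *Calr* 1066 and 453, *Pdia3* 797 and 369, and *Manf* 523 and 184. *Creld2* was 97.5 and 22.4 CPM (log2 ratio −2.12) and the stress-induced factor *Xbp1* 165 and 67.3 CPM. *Hspa5* (BiP) was lower by less, at 2087 and 1250 CPM (−0.74), and *Dnajb9* and *Atf4* had ratios of 0.16 and 0.13.

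Promoter windows of 3 genes of this list are shown because they hold the letters of the endoplasmic reticulum stress element, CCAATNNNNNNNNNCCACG, searched on both strands and marked in capitals. The windows are chr15:88819396-88819695 (plus strand) for *Creld2*, chr2:34771840-34772139 (plus strand) for *Hspa5* and chr10:86705395-86705694 (minus strand) for *Hsp90b1*, cut and credited as above.
Creld2: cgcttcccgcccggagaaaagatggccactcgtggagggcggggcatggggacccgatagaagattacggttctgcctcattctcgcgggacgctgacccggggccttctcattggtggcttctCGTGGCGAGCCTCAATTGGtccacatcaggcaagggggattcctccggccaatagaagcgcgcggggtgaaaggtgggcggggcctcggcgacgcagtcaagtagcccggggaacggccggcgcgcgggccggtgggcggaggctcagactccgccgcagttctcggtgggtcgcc
Hspa5: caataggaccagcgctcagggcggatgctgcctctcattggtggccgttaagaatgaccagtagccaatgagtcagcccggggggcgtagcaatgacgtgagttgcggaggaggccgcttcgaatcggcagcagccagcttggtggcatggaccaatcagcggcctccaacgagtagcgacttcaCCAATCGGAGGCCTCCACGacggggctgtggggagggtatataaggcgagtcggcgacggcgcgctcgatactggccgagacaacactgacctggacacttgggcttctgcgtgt
Hsp90b1: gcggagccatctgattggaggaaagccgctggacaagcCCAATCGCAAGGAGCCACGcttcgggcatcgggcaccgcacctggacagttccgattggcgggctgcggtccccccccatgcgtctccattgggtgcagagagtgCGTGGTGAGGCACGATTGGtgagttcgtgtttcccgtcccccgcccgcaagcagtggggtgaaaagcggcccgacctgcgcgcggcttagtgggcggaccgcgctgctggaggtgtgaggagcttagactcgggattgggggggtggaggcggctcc
The letters occurred once in the first and second window and 2 times in that of *Hsp90b1*. Of 21 list genes with a RefSeq window, 7 held a match (*Calr*, *Canx*, *Creld2*, *Dnajc3*, *Hsp90b1*, *Hspa5* and *Pdia6*), beside 39 of all 32851 windows (0.119%). The list was chosen after the ratios had been seen, and chaperones of this compartment are textbook targets of the element, so the share describes the list only. Of 19 collagen-processing genes with a window, 0 held a match.

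Among tendon transcription factors, *Scx* stood apart. It was 253 CPM in untreated against 55.5 CPM in calcitriol cells (log2 ratio −2.19, −2.51 to −1.87), with UMIs in 76 of 116 and 43 of 137 cells, and in 39.6% and 6.72% of the cells after thinning to 3000 UMIs. The other 7 measured members of the list were within 2-fold, beside 5.81% of all genes lower and 4.08% higher. The median of all 8 was −0.06. *Mkx* was 69.1 and 59.8 CPM (−0.21), and the immediate early factor *Egr1*, which also acts in tendon, 1245 and 1824 CPM (0.55).

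Of 27 measured members of the tendon matrix list, 6 were at least 2-fold lower and 2 higher, beside 5.81% and 4.08% of all genes. The median was −0.40. The lowest member was *Tppp3*, which is tubulin-binding and not a matrix protein. The highest was *Spp1* (log2 ratio 2.04), which the vitamin D and osteoblast lists also hold, so the counts of these lists share it. *Thbs4* (5142 and 5830 CPM), *Fmod* (6260 and 5344 CPM) and *Comp* (5302 and 4513 CPM) had log2 ratios of 0.18, −0.23 and −0.23. *Fbn1*, the fibrillin of microfibrils, was 329 and 119 CPM. *Clec3b* (tetranectin) was 1242 and 407 CPM, and *Eln* (elastin) was found in only 15 and 8 cells. *Thbs1*, an adhesive glycoprotein that activates TGF-beta, was higher at 525 and 1629 CPM (1.63, 1.52 to 1.75). Small leucine-rich proteoglycans other than *Kera* all stayed within 2-fold (11 measured, median −0.28).

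**Figure D3:**
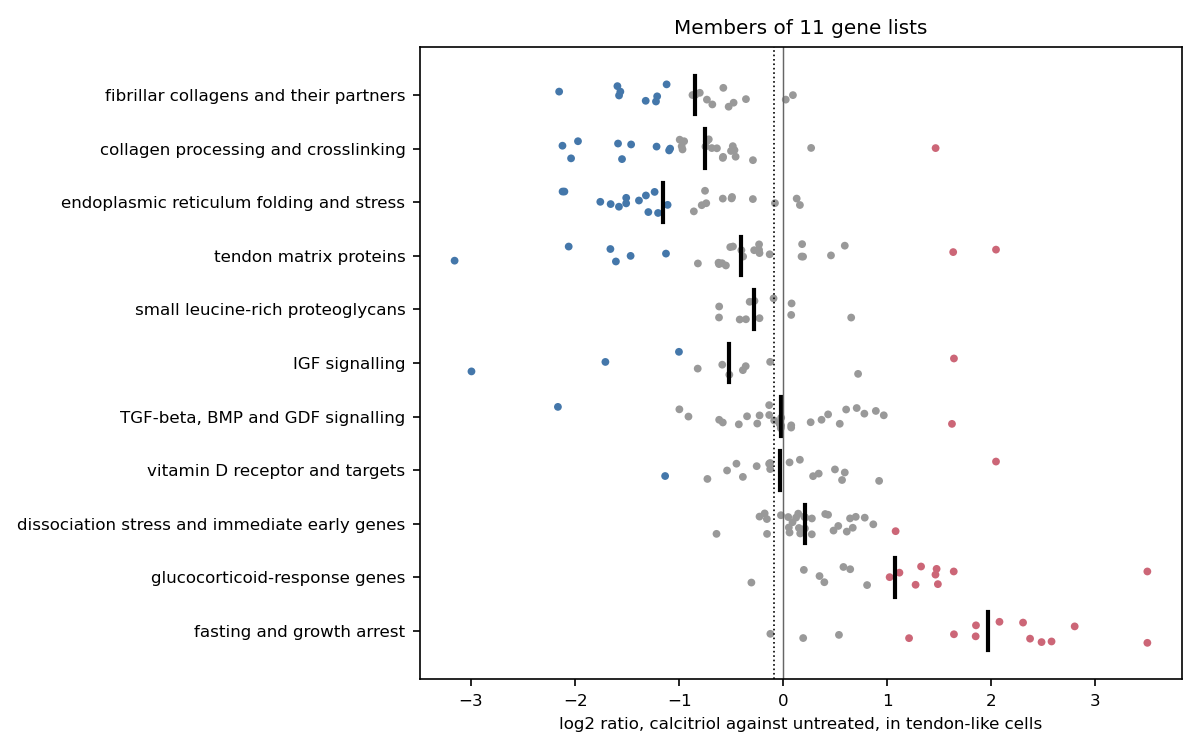
Log2 ratios of calcitriol to untreated CPM of the measured genes in each gene list (points, 1 per gene) with the median of the list, in tendon-like cells. Glucocorticoid-response genes lie mostly above 0 (median 1.07), and fibrillar collagens (−0.85) and collagen processing genes (−0.75) mostly below.

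*Igf1*, the insulin-like growth factor, was 1009 CPM without and 309 CPM with calcitriol (log2 ratio −1.71, −1.85 to −1.57). Of 11 measured members of this list, 3 were at least 2-fold lower (*Igf1*, *Igfbp4* and *Igfbp5*) and 1 higher, *Irs2*, an adaptor of the insulin receptor, at 57.5 and 179 CPM, beside 5.81% and 4.08% of all genes. The receptor *Igf1r* was 54.2 and 89.1 CPM (0.72). Of 28 measured TGF-beta, BMP and GDF genes, *Fst*, an inhibitor of activins, was at least 2-fold higher (1.62) and *Ccn3* lower (−2.17), with a median of −0.02. *Ccn2*, a matricellular target of TGF-beta, was 1905 and 3720 CPM (0.97). Matrix proteases and their inhibitors had 1 higher member, the aggrecanase *Adamts5* (117 and 313 CPM, log2 ratio 1.42, but 0.37 in the cells with both *Kera* and *Angptl7*), 2 lower and a median of 0.03 over 16 genes. The counts of the TGF-beta and protease lists lie near the shares of all genes. Of 5 angiopoietin-like and neuropeptide genes measured, *Angptl4*, an inhibitor of lipoprotein lipase, was higher at 69.1 and 160 CPM.

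Among the glucocorticoid-response genes, the metallothioneins and *Sgk1* were higher. Of 16 measured, 9 were at least 2-fold higher and 0 lower, beside 4.08% and 5.81% of all genes, with a median of 1.07. The metallothioneins *Mt1* and *Mt2*, which bind zinc, were 4206 and 2181 CPM in the untreated and 11591 and 6107 CPM in the calcitriol cells (log2 ratios 1.46 and 1.49). The kinase *Sgk1* was 501 and 1391 CPM (1.47, 1.35 to 1.59), the transcription factors *Cebpd* and *Zbtb16* 600 and 1218 CPM and 44 and 106 CPM, and *Glul*, the glutamine synthetase, 202 and 439 CPM. *Pdk4*, a kinase that shuts off pyruvate dehydrogenase, was found in 5 and 36 cells (log2 ratio 3.50, but 1.78 in the cells with both *Kera* and *Angptl7*). *Fkbp5*, a widely used target of the glucocorticoid receptor, was 63.6 and 95 CPM (0.58). Several of the listed genes also respond to other signals.

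A list of 15 genes of fasting and growth arrest was added after the ratios had been seen, and 11 of its 14 measured members were at least 2-fold higher, with 0 lower and a median of 1.96, beside 4.08% and 5.81% of all genes. Its largest ratio was that of *Pdk4*, which the glucocorticoid list also holds, so the counts of both lists share it. *Txnip*, an inhibitor of glucose uptake, was 160 and 896 CPM (2.48, 2.28 to 2.68). *Trp53inp1* was 16.2 and 113 CPM and *Gabarapl1*, an autophagy protein, 78.5 and 283 CPM. The muscle ubiquitin ligase *Fbxo32* and *Ndrg2* were found in 14 and 11 untreated and in 60 and 60 calcitriol cells. Of 79 ribosomal protein genes, also looked at afterwards, 7 were at least 2-fold higher and 77 were above 0, as were 2643 of all 6148 genes, with a median of 0.59.

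The vitamin D receptor itself was hardly detected. *Vdr* had 0 UMIs in the untreated cells, which allows up to 2.03 CPM, and 6 UMIs in 3 calcitriol cells. *Cyp24a1* had 0 UMIs in both libraries. Of 18 measured genes of the vitamin D list, 1 was at least 2-fold higher (*Spp1*) and 1 lower (*Pth1r*, the receptor of parathyroid hormone, at 48.1 and 21.9 CPM), close to the shares of all genes (4.08% and 5.81%), and the median was −0.03. Osteopontin (*Spp1*) was 861 and 3549 CPM (log2 ratio 2.04), but 1 cell held 51.6% of its untreated UMIs and 1 cell 33.4% of its calcitriol UMIs. Without these cells the ratio was 2.51, and it ran from 1.20 after thinning to 3000 UMIs to 2.93 in the cells with both *Kera* and *Angptl7*. In the junction cells the ratio of *Spp1* was −2.36.

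Of 30 immediate early and dissociation stress genes, 1 (*Myc*) was at least 2-fold higher and 0 lower, beside 4.08% and 5.81% of all genes, and 24 were above 0, with a median of 0.20. Of 14 measured cytokine and acute phase genes, 4 were higher and 3 lower, beside the same shares. Their median of −0.36 was 0.08 without the cells with bone, cartilage or vessel genes and 1.06 in the cells with both *Kera* and *Angptl7*. *Il6* was found in 8 and 23 cells, and the chemokine *Cxcl14* was 867 and 379 CPM. *Bnip3*, a mitophagy receptor at 29.8 and 107 CPM, was the 1 of 11 hypoxia and glycolysis genes past 2-fold. Of the cell cycle genes, 3 of 14 were measured, with 1 lower. The summed list was 603 and 707 CPM. Below the filter, *Ube2c* had 3 and 127 UMIs, *Cenpf* 0 and 68 and *Mki67* 3 and 39. *Ube2c* and *Cenpf* passed the limit of 50 UMIs, so each was found in under 10% of the cells of either library.

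The same lists were measured in other classes of cells, which share no cells with the tendon-like cells but come from the same libraries. The median of the fibrillar collagens, −0.85 here, was −0.59 in junction cells, −0.25 in *Pi16*-negative fibroblasts (293 and 487 cells with *Ly6a* and *Pdgfra*) and −0.50 in endothelial cells (194 and 229 cells), and 2 of 19, 2 of 19 and 2 of 12 genes were at least 2-fold lower against 8 of 19 here. In these classes 3.91%, 1.86% and 2.03% of all genes measured were lower. In the cells chosen by *Thbs4*, *Fmod* and *Comp*, which include tendon-like cells, 3 of 20 fibrillar collagens were lower. For collagen processing the medians were −0.69, −0.31 and −0.32, with 4 of 25, 1 of 25 and 2 of 18 genes lower. For the endoplasmic reticulum list they were −1.16, −0.69 and −0.26, and 13, 3 and 3 of the 24 genes were at least 2-fold lower. For the glucocorticoid list they were 0.96, 0.94 and 0.80, and for fasting and growth arrest 1.45, 1.05 and 0.71. All measured genes had medians of −0.08, −0.13 and −0.06. *Scx* was at −1.85 in the junction cells. *Col1a1* itself was at −0.20 in fibroblasts and at 1.28 in endothelial cells (322 and 781 CPM there). No difference between classes was tested.

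**Figure D4:**
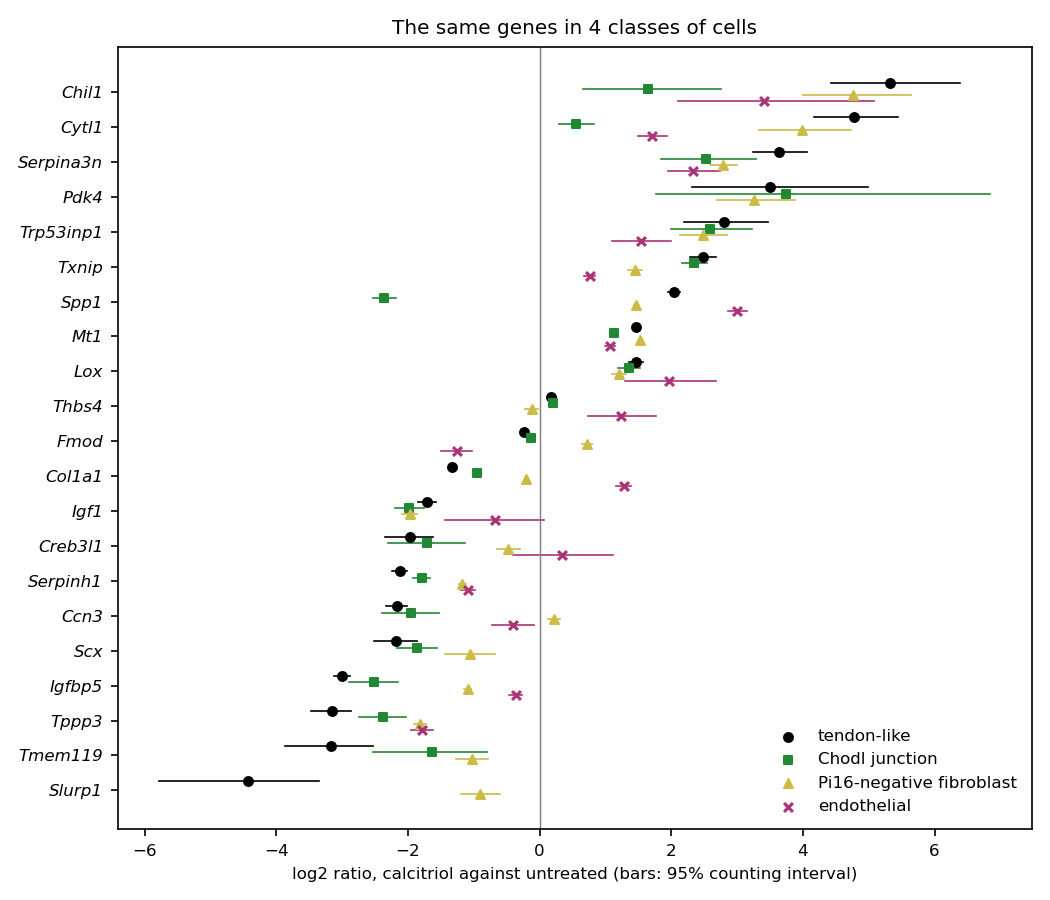
Log2 ratios of calcitriol to untreated CPM of selected genes in tendon-like, junction, fibroblast and endothelial cells. Points are ratios of summed UMIs and bars exact 95% intervals that cover counting error only, and genes too low in a class are left out. Serpina3n, Txnip and Lox lie above 0 and Serpinh1, Scx and Igfbp5 below 0 in the tendon-like and the junction cells, and Spp1 lies on opposite sides (2.04 and −2.36).

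Against the fibroblasts, *Cilp2*, *Thbs4* and *Mkx* were among the genes with the largest excess in the tendon-like cells. The fibroblasts had been chosen without *Tnmd*, *Kera*, *Angptl7* and *Chodl*, and since counts chose both classes the comparison is a description. Of 7886 genes measured, 119 (1.51%) were at least 2-fold higher and 259 (3.28%) at least 2-fold lower than in fibroblasts in both libraries. The 10 highest were *Mstn*, *Cilp2*, *Mfap4*, *Fgf9*, *Thbs4*, *Mt3*, *Mkx*, *P3h2*, *Cpxm2* and *Il33*. Myostatin (*Mstn*), an inhibitor of muscle growth, was 84.6 CPM against 0 CPM in the untreated and 59.3 against 1.28 CPM in the calcitriol library, and in the junction cells it was higher still, at 364 and 674 CPM. *Thbs4* was 5142 against 289 CPM and 5830 against 266 CPM, and *Mkx* 69.1 against 2.05 CPM and 59.8 against 4.99 CPM. The 5 lowest were *Ccl11*, *Islr2*, *Scg3*, *Stmn2* and *Cd248*. *Ccl11*, the chemokine eotaxin, had 0 UMIs in the tendon-like cells of both libraries and stood at 68.0 and 88.5 CPM in fibroblasts. Of 26 tendon matrix genes 11 were higher and 5 lower, of 28 TGF-beta, BMP and GDF genes 2 were higher and 6 lower, and of 17 cytokine genes 1 was higher and 9 lower.

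Against the junction cells, *Cfb*, *Penk* and *Clu* were among the genes with the largest excess in the tendon-like cells, and *Col22a1* was nearly absent. Of 5116 genes measured, 96 (1.88%) were at least 2-fold higher and 90 (1.76%) at least 2-fold lower in both libraries. The 10 highest were *Cfb*, *Ibsp*, *Penk*, *Sfrp4*, *Clu*, *C3*, *Fst*, *Lbp*, *Prss23* and *Igfbp5*. *Ibsp* is among the genes that marked the cells with bone, cartilage or vessel genes described at the end. *Penk*, the precursor of enkephalins, was 242 against 12.8 CPM and 376 against 34.5 CPM. Clusterin (*Clu*), an extracellular chaperone, was 796 against 108 CPM and 1262 against 104 CPM, and *Igfbp5* was 2925 against 352 CPM and 367 against 61.6 CPM. The 5 lowest were *Col22a1*, *Shisal2b*, *Olfml2a*, *Tnfrsf21* and *Sparcl1*. *Col22a1*, a collagen of the muscle-tendon junction, was 0 against 268 CPM and 0.534 against 259 CPM. Of 12 cytokine genes 4 were higher, of 9 fibroblast markers 4 and of 11 genes of the insulin-like growth factor list 3, with 0 lower in each. Of 5 angiopoietin-like and neuropeptide genes 1 was higher and 0 lower.

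The tendon-like cells were not uniform. Cells with a UMI of *Ly6a*, the surface antigen Sca-1, made up 61 of 116 untreated and 47 of 137 calcitriol cells, with median UMIs of 12956 and 14604 against 10521 and 10163.5 in cells without it, so that depth moved with the split and its part was not tested. Of 3417 genes, 47 (1.38%) were at least 2-fold higher and 44 (1.29%) at least 2-fold lower in the cells with *Ly6a* in both libraries. The sum of 91 genes was 39 in the cells with both *Kera* and *Angptl7*, 182 with at least 20 UMIs and 314 at a fold limit of 1.5. The most extreme higher genes were *Ly6c1*, *Ccl2*, *C4b*, *Vcan* and *Cxcl1*. The monocyte chemokine *Ccl2* was 980 against 88.8 CPM in the untreated and 920 against 51.0 CPM in the calcitriol library. Versican (*Vcan*), a large proteoglycan, was 715 against 120 CPM and 209 against 25 CPM. The lowest were *Rbp4*, *Mfap4*, *Adamtsl1*, *Omd* and *Spock2*. Osteomodulin (*Omd*), a proteoglycan of mineralizing matrix, was 142 against 640 CPM and 111 against 575 CPM. Of 12 cytokine genes 5 were higher, and of 7 fibroblast markers 5. Of 30 immediate early and dissociation stress genes, 4 were lower and 0 higher.

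**Figure D5:**
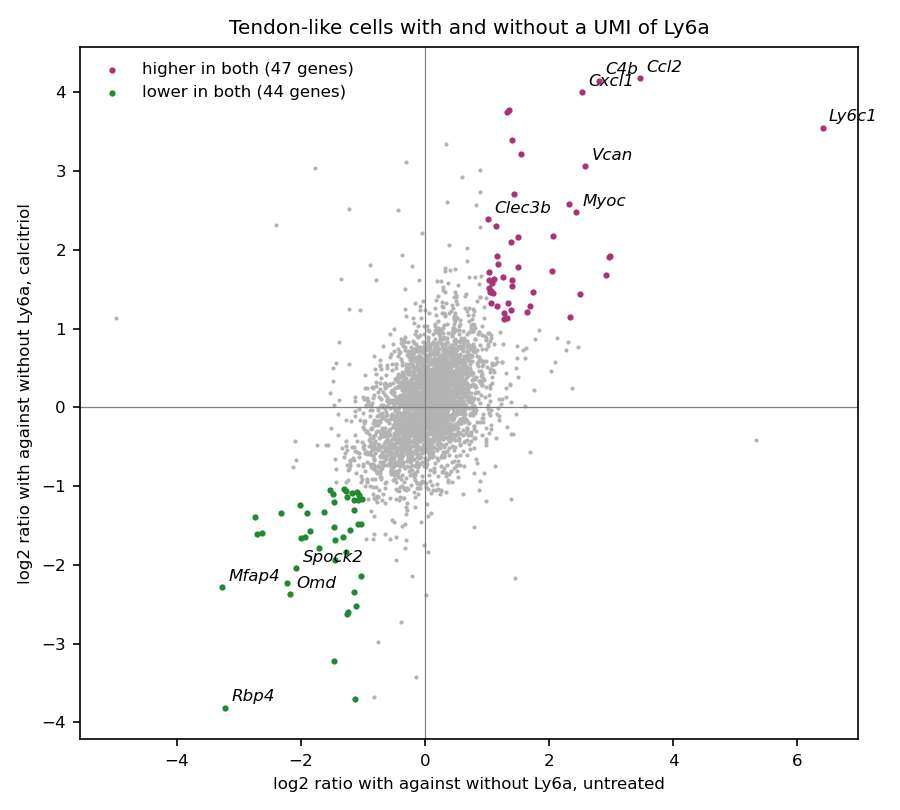
Log2 ratios between tendon-like cells with and without a UMI of Ly6a in the untreated (x axis) and calcitriol (y axis) library, 1 point per gene. Genes such as Ly6c1, Ccl2 and C4b lie at the upper right and Rbp4, Mfap4 and Omd at the lower left, in both libraries.

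*Angptl7*, *Tnmd* and *Kera* were lower in the cells with *Ly6a* in both libraries, with *Tnmd* at 839 against 1592 CPM and at 423 against 921 CPM. The rule set minimum counts of these genes and depth moved with the split, so their levels here are a description only. *Scx* was 252 against 253 CPM and 55.0 against 56.0 CPM, close to each other within each library. A split by *Chad* (chondroadherin, a cartilage and tendon matrix protein; 88 and 100 cells with a UMI) went the other way for cytokines and fibroblast markers. Of 3418 genes, 37 (1.08%) were higher and 48 (1.4%) lower in cells with *Chad* in both libraries. *Wif1*, an inhibitor of Wnt ligands, was 408 against 43.0 CPM and 462 against 57.8 CPM, and *Omd* 434 against 61.8 CPM and 458 against 76.4 CPM. *Cxcl1*, a neutrophil chemokine, was 77.0 against 2255 CPM and 111 against 733 CPM. Of 12 cytokine genes 0 were higher and 7 lower, and of 8 fibroblast markers 0 and 4. Of 25 tendon matrix genes 7 were higher and 2 lower, against 2 higher and 3 lower of 26 in the split by *Ly6a*. Both splits were chosen after the values had been seen. The split by *Npy* rested on 3 and 5 cells, so its genes are not described and only their number is given at the end.

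Markers of other cell types differed between the libraries beside these results. The summed osteoblast list was 1630 and 4879 CPM (most abundant gene *Spp1*), with *Ibsp*, the bone sialoprotein, at 398 and 887 CPM and in 13 and 28 cells. The synovial lining list was 2304 and 4991 CPM (*Prg4* the most abundant, which the rule limits), the chondrocyte list 5767 and 5168 CPM (*Comp*) and the endothelial list 17.6 and 97.2 CPM (*Eng* and *Flt1*), of which *Cdh5*, *Kdr*, *Emcn* and *Flt1* had 0 UMIs in the untreated cells. Of all genes measured, 4.08% were at least 2-fold higher and 5.81% lower. Of 9 measured chondrocyte markers 4 were at least 2-fold higher and 1 lower, with a median of 0.57 that turned to −0.66 without the cells with bone, cartilage or vessel genes, to −1.24 in the cells with both *Kera* and *Angptl7*, to −0.07 with 2 UMIs of *Tnmd* and to −0.08 without the highest doublet scores. Of 5 osteoblast markers 2 were higher, and of 3 synovial markers 2. The osteocyte list was 107 and 266 CPM (*Pdpn*), the marrow stroma and fat list 231 and 301 CPM, the smooth muscle and pericyte list 212 and 199 CPM, and the Schwann cell list 23.0 and 28.8 CPM. In these, 1 smooth muscle gene of 3 measured was lower and the other genes measured were within 2-fold. All 3 measured smooth muscle genes were below 0. Some members below the filter had more UMIs with calcitriol. *Dmp1* had 1 and 206 UMIs, *Mepe* 0 and 26 and the pericyte gene *Rgs5* 4 and 154. *Dmp1* and *Rgs5* passed the limit of 50 UMIs, so each was found in under 10% of the cells of either library. The macrophage and neutrophil list was 7.45 and 14.4 CPM and the skeletal muscle list 3.39 and 4.80 CPM, with no gene measured. The erythroid list was 1410 and 325 CPM (*Hbb-bs*). *Ptprc*, *Tyrobp* and *Fcer1g* of leukocytes and *Acta1*, *Ckm* and *Myh4* of skeletal muscle had 0 UMIs in both libraries. The part of these cell types in the ratios was not tested. The fibroblast list was 8263 and 8661 CPM (*Gsn*), with 2 of 9 members at least 2-fold lower.

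At least 10 UMIs of *Ibsp*, *Bglap*, *Dmp1*, *Cytl1*, *Mmp13* or *Pecam1* were found in 10 untreated and 13 calcitriol cells, so the ratios of these genes themselves without the cells are not read. The cells had a median of 14807 and 24270 UMIs. The part of mixed droplets in these cells was not tested. Without them 224 genes were at least 2-fold higher and 347 lower, and 188 and 286 of these were shared with the full comparison (74.9% and 80.1% of its genes). With the cells chosen by *Thbs4*, *Fmod* and *Comp*, 100 of the 251 higher and 179 of the 357 lower genes were past 2-fold again. In the cells with UMIs of both *Kera* and *Angptl7*, 117 (46.6%) and 152 (42.6%) of them were.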

How the data were processed

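UMI counts per gene and barcode were analysed as the authors deposited them, from the filtered matrices of Cell Ranger 4.0.0 (mouse build GRCm38, mm10) without further normalization. The femurs of 6 mice per group entered 1 library, as the study describes. The untreated library held 6076 barcodes and 70266983 UMIs and the calcitriol library 4562 barcodes and 60392557 UMIs. Of 32285 genes listed in the files, 6148 passed the filter on low counts in the tendon-like cells.

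CPM are UMIs of a gene summed over cells, per 1e6 summed UMIs. Ratios carry exact conditional binomial intervals and shares Clopper-Pearson intervals at 95%, for counting error only. A count of 0 was given a floor of 3 counts over the library's cells. Genes of the rule, mitochondrial and haemoglobin genes were not counted as called. Comparison classes were chosen by the presence or absence of UMIs, within each library, and between classes a gene was called where both libraries passed 2-fold.

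Genes named were the 10 largest and smallest ratios with calcitriol, the 10 largest and 5 smallest against each class, the 5 of each end of a split, the 10 most abundant genes and members of 28 lists. The members and lists were chosen with earlier results of these data known, and 3 lists were added later. Scores against simulated doublets (scanpy 1.11.5) marked 0 untreated and 3 calcitriol barcodes by their own threshold, which did not work, so doublets were kept and the highest scores at the expected rate were left out as an alternative. Python 3.11.15, numpy 2.4.6, scipy 1.17.1 and pandas 2.3.3 were used. The ratios were tested on simulated data with known changes. The simulated counts had counting error only, without spread between cells or mice, so the check does not cover such spread. Alternatives in the rule, scaling, thinning, filters and fold limit were computed, besides the highest doublet scores, the cells with both genes, the cells chosen by *Thbs4*, *Fmod* and *Comp*, and the cells without bone, cartilage or vessel genes, which were chosen after seeing the data.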

Additional observations from a re-analysis of the deposited data

Results flagged for a closer look

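The ratio of *Spp1* (osteopontin) between calcitriol and untreated cells had opposite signs in related cells. It was 2.04 on the log2 scale in the tendon-like cells and −2.36 in the junction cells of the same libraries. The difference between the classes was not tested, since each group was 1 library. Among the untreated tendon-like cells 1 cell held 51.6% of the UMIs of *Spp1*.

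*Angptl7* was also present in barcodes that no comparison uses. In barcodes with fewer than 200 detected genes it stood at 0.171 CPM in the untreated and at 12.5 CPM in the calcitriol library. Its part in the counts of the tendon-like cells was not tested, and the level in the calcitriol tendon-like cells was 8653 CPM.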

How the results depend on the processing

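No p-value was computed, no paired analysis was possible because each group is 1 library with no replicate, and counting intervals do not cover the spread between mice. The log2 ratios of *Angptl7* (1.81 to 2.65), *Kera* (−2.41 to −1.60) and *Scx* (−2.89 to −2.09) kept their sign under every alternative run for them. *Angptl7* and *Kera* belong to the rule, and most alternatives used cells chosen by their counts, so their kept sign is a description only. *Scx* was not part of the rule. The median of the glucocorticoid list was 0.91 with 2 UMIs of *Tnmd* required and 0.87 in the cells chosen by *Thbs4*, *Fmod* and *Comp*. With the median ratio set to 0, small leucine-rich proteoglycans were at −0.18 and collagen processing at −0.65. With the mean of the cells' own CPM, fibrillar collagens were at −1.23 and collagen processing at −0.99. Higher and lower with calcitriol (251 and 357) were 558 and 830 genes after thinning to 3000 UMIs, 444 and 586 with at least 20 UMIs, and 721 and 1111 at a fold limit of 1.5. The lower limits admit more genes by construction. Fewer genes were higher and lower in the cells with both *Kera* and *Angptl7* (221 and 238). In the cells chosen by *Thbs4*, *Fmod* and *Comp* they were 218 and 335. With at least 20 UMIs, 148 genes were higher and 167 lower than in junction cells, and 772 differed with *Npy* (107 with at least 50). At a fold limit of 1.5, 266 were higher and 611 lower than in fibroblasts, 207 higher and 266 lower than in junction cells, and 462 differed with *Npy*. Without cells with bone, cartilage or vessel genes, the vitamin D list was at −0.21. *Mmp13* was at 1.94 instead of −3.14 there, but it is itself one of the genes that defined these cells, so this ratio is not read. Without the highest doublet scores, the proteoglycans were at −0.19 and the vitamin D list at −0.21. In the 57 and 58 cells with both *Kera* and *Angptl7*, tendon matrix was at −0.63, the proteoglycans at −0.39 and fibrillar collagens at −1.12, with 423 genes lower than in fibroblasts and 50 higher than in junction cells. In the 279 and 391 cells chosen by *Thbs4*, *Fmod* and *Comp*, fibrillar collagens were at −0.55, collagen processing at −0.65 and *Mmp13* at 0.63. The causes were not tested.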
